A study of Mus musculus with 12 samples.

Results

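The integrin, laminin and basement membrane genes were examined in accessible-chromatin maps of C2C12, an established line of mouse myoblasts that fuses into myotubes when serum is withdrawn. The set held 33 genes, chosen by name, of 21631 protein-coding genes on the 20 chromosomes with peaks. It comprised 19 integrin chains, 10 laminin chains, both nidogens (Nid1 and Nid2), perlecan (Hspg2) and fibronectin (Fn1). An ATAC-seq peak was counted for a gene if its midpoint fell between the gene's ends or no more than 10 kb outside them. This gave 104 of the 34118 peaks of the wild-type list and 87 of the 27187 peaks of the knockout list, and no peak fell to more than 1 of the 33 genes.

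The wild-type (WT) and Runx1 knockout (Runx1KO, here KO) cells were C2C12 cells at day 0, in growth medium with 20% fetal bovine serum, with 3 samples per genotype. Runx1 encodes a transcription factor of the RUNX family. The labels do not say how it was knocked out or whether the KO cells came from 1 clone, and samples at day 2 of differentiation medium were not analysed here. In ATAC-seq the Tn5 transposase cuts open DNA in isolated nuclei, so that reads pile up where chromatin is accessible. Every deposited peak carries the name of the replicate 1 library of its genotype. Each value below therefore comes from 1 library per genotype, has no replicate error and allows no test between genotypes. The depth of sequencing is unknown, since no read counts were used.

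At the targeted gene, Runx1, 19 WT and 12 KO peaks were found, and 7 of the WT peaks had no KO partner. The lists do not read the edited allele. Of 5 myoblast genes, Myod1, Des and Cdh15 each had 2 peaks in both lists, Pax7 had 1 WT peak and Myf5 none. The leukocyte genes Ptprc and Cd3e and the epithelial genes Epcam and Krt5 had no peak. The endothelial genes Pecam1 and Cdh5 together had 3 peaks in each list.

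Integrins are receptors made of an alpha and a beta chain that hold a cell to the matrix around it and connect that matrix to the actin cytoskeleton. Laminins are trimers of an alpha, a beta and a gamma chain. With nidogens, perlecan and type IV collagen they form the basement membrane, the sheet that surrounds each muscle fibre. In muscle this adhesion anchors fibres and their stem cells, and loss of the laminin alpha chain encoded by Lama2 causes a congenital muscular dystrophy.

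A peak was called shared when a peak of the other list overlapped it by at least 1 bp and specific when none did, which is how the deposited shared and specific lists divide the peaks. At the 33 genes, 24 of 104 WT peaks (23.1%, exact 95% interval 15.4 to 32.4) were WT specific, against 27.3% of the full WT list. Of the KO peaks, 8 of 87 (9.20%, interval 4.05 to 17.3) were KO specific, against 9.59% of the full KO list. Among peaks at all protein-coding genes the specific shares were 25.6% (WT) and 7.95% (KO), the latter below the KO share of the set. Both shares of the set lay near these values and those of the full lists. The intervals, which cover counting error only, held all of these values. The WT specific share exceeded the KO specific share by 13.9 percentage points at these genes and by 17.7 points in the full lists, which differ in length. A peak missing from a list may lie under the threshold of the peak caller or be a call that is absent from the list used here. In both lists the call numbers rise along each chromosome with gaps, so that an absent call shows as a missing number.

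**Figure D1:**
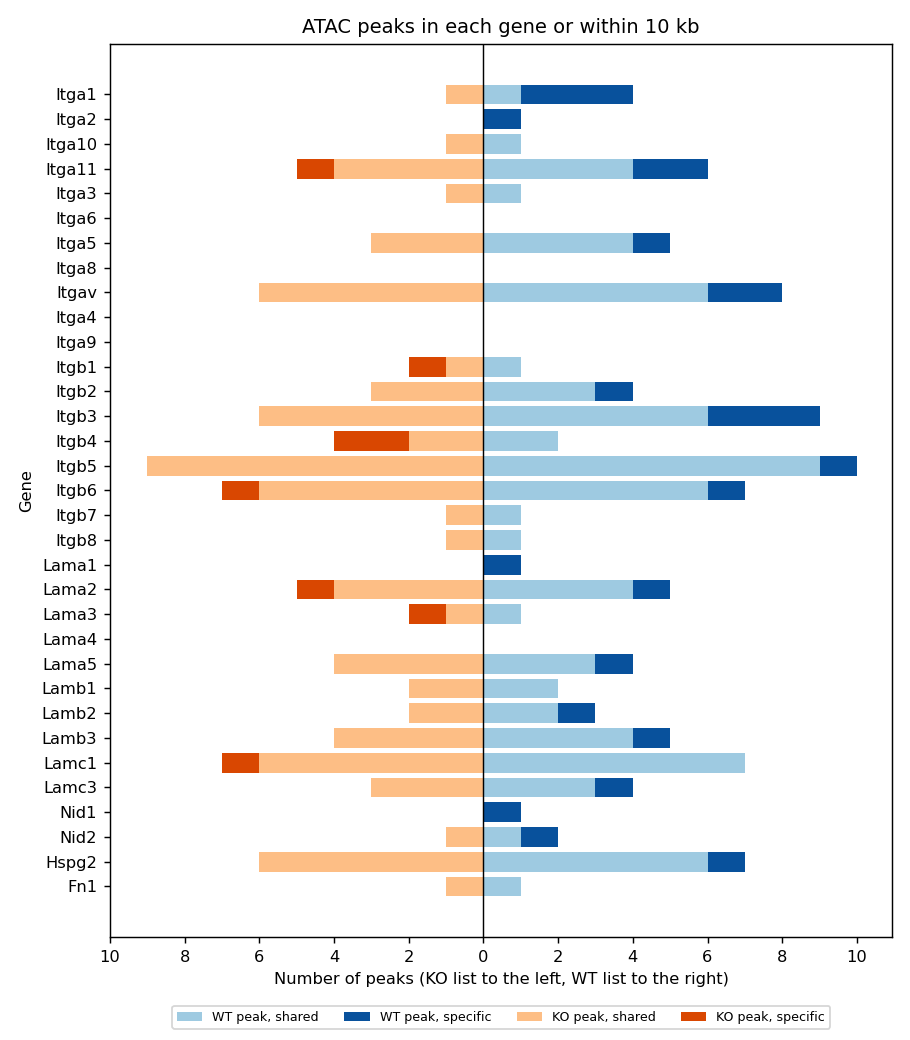
Number of ATAC peaks per gene, KO list to the left of 0 and WT list to the right, with shared peaks in light and specific peaks in dark bars. Itgb5 held the most, with 10 WT and 9 KO peaks, and 5 of the 33 genes held none.

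A peak of either list was found at 28 of the 33 genes, against 65.8% of all protein-coding genes. In the WT list 28 genes had a peak (background 64.6%) and in the KO list 25 did (background 60.8%). The 33 genes are long, with a median of 74.7 kb against 17.3 kb for all protein-coding genes. Among genes of at least 50 kb, a WT peak was found at 18 of 23 of the set and at 79.2% of all such genes, and a KO peak at 15 of 23 and at 75.6%. At that length the set lay near or below the background.

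The 5 genes with no peak in either list were Itga4, Itga6, Itga8, Itga9 and Lama4. Their nearest WT peak lay 14.7 kb from Itga6, 23.8 kb from Itga8 and from Lama4, 24.5 kb from Itga9 and 178 kb from Itga4. Between the retained WT peaks on either side of each of these genes, from 4 to 7 WT call numbers were missing, so calls somewhere in those stretches are absent from the list. The same count in the KO list ran from 0, at Itga9, to 6, at Lama4. The lists do not say how accessible these genes were.

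Of the 28 genes with a WT peak, 18 had a WT specific one, against 39.1% of all genes with a WT peak. Of the 25 with a KO peak, 7 had a KO specific one, against 12.3%. The number of peaks per gene bears on these counts, so they were also read within bands of it. A WT specific peak was found at 3 of 10 genes with 1 WT peak (16.5% of all such genes), at 2 of 4 with 2 to 3 peaks (43.7%), at 8 of 8 with 4 to 6 peaks (76.4%) and at 5 of 6 with 7 to 10 peaks (93.5%). A KO specific peak was found at 0 of 7 genes with 1 KO peak (4.85%), at 2 of 7 with 2 to 3 (14.6%), at 3 of 8 with 4 to 6 (29.4%) and at 2 of 3 with 7 to 10 (48.1%). The set lay above the background in most bands, and below it at 7 to 10 WT peaks and at 1 KO peak. Each difference was of at most a few genes and was not tested. The 6 genes with peaks but no specific peak in either list were Itga10, Itga3, Itgb7, Itgb8, Lamb1 and Fn1.

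**Figure D2:**
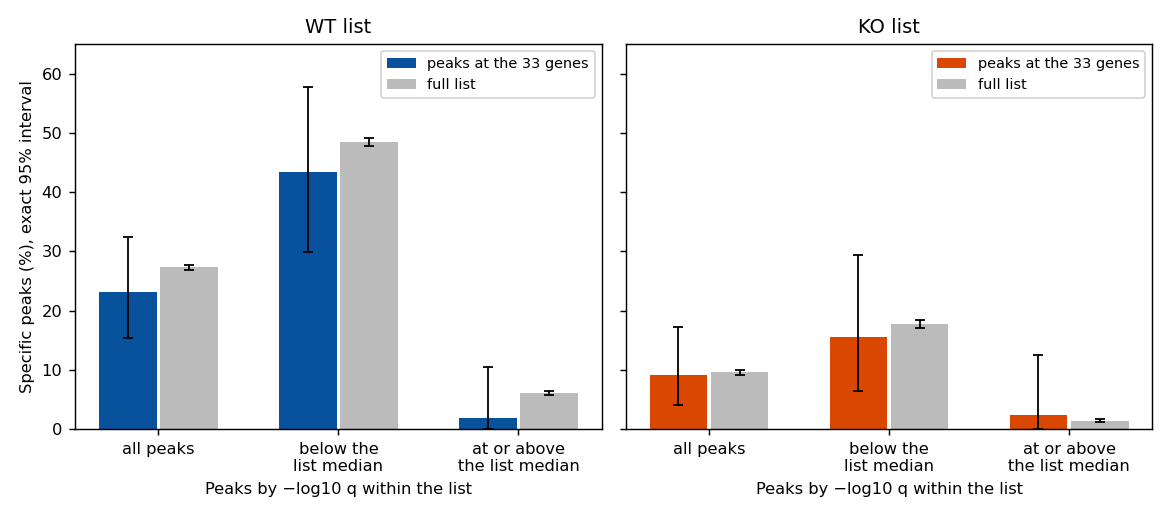
Share of specific peaks in the WT list (left) and the KO list (right), for all peaks and for the weaker and stronger peaks, divided at the list's median −log10 q, with peaks at the 33 genes in colour, the full list in grey and exact 95% intervals as whiskers. The share at the 33 genes was 43.4% among the weaker WT peaks, against 48.5% in the full list, and 1.96% among the stronger ones, against 6.17%.

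Specific peaks at these genes were mostly weak, as they were in the full lists. The deposited −log10 q of a peak measures how far it stands above background in its library, and the deposited fold is its enrichment over background. Both depend on depth, so they rank peaks within 1 list only. In the WT list 23 of 53 peaks below the list's median −log10 q were WT specific, against 1 of 51 at or above it. In the KO list the counts were 7 of 45 (15.6%, against 17.7% in the full list) and 1 of 42 (2.38%, against 1.45%). The single WT specific peak above the median lay past Lamc3, and the single KO specific peak above the median lay upstream of Itgb1. Median −log10 q was 9.29 for WT specific and 19.9 for shared WT peaks at the 33 genes, and 5.99 for KO specific and 18.3 for shared KO peaks.

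**Figure D3:**
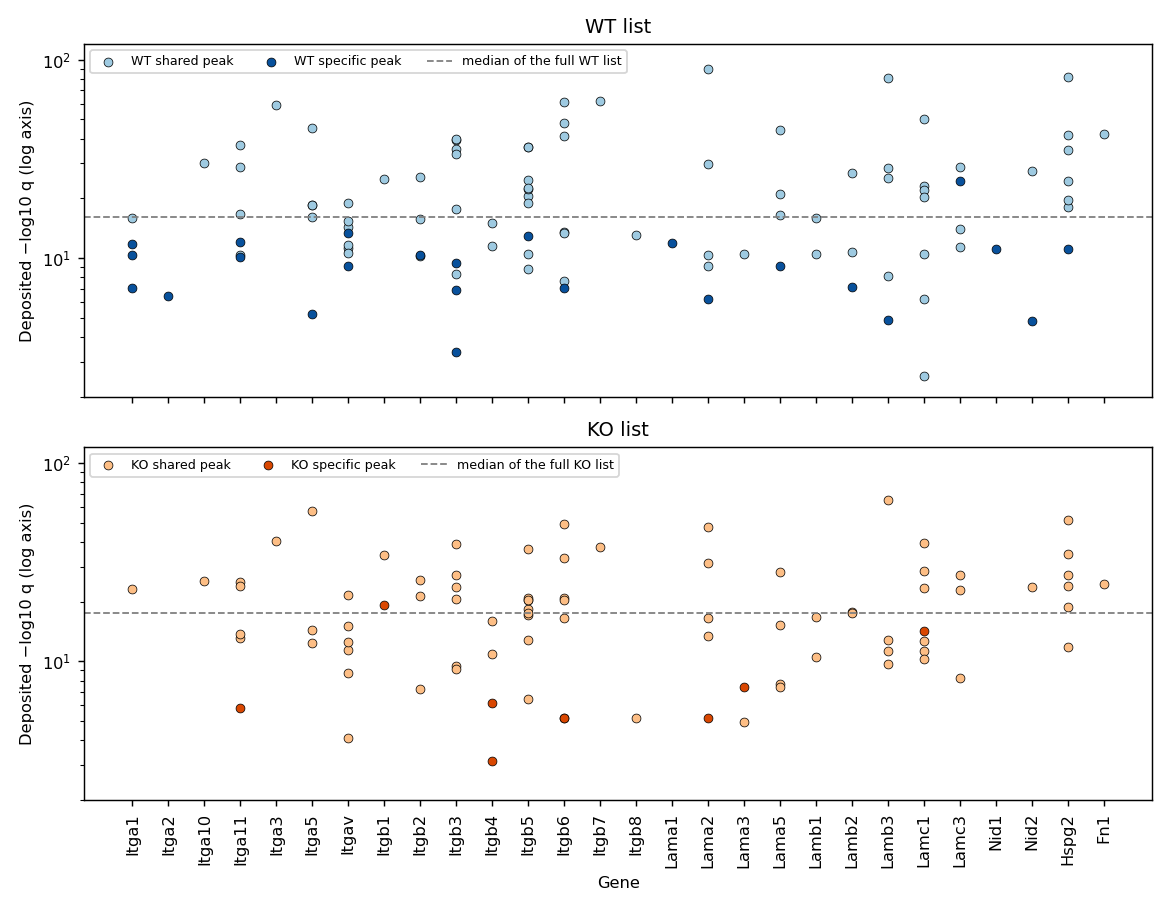
Deposited −log10 q (log axis) of every peak at the 28 genes with peaks, WT list above and KO list below, with shared peaks as light and specific peaks as dark points and the median of the full list as a dashed line. All but 1 specific peak of each list lie under the line, and the highest WT value, 89.6, belongs to Lama2.

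Promoter sequences are shown for 6 genes with a peak in the window around the start site, since there accessibility and sequence can be set side by side. RefSeq promoter windows of build GRCm38.p6, from 250 bases before to 50 after a start site, were found for 22 of the 33 genes (25 windows). None was found for Itga6, Itgb2, Itgb3, Itgb4, Lama1, Lama3, Lama4, Lamc1, Lamc3, Nid2 and Fn1, which the window counts therefore leave out. Of these, Itgb2, Itgb3, Lamc1, Lamc3, Nid2 and Fn1 had a WT peak centred within 1 kb of a gene end, and the others did not. Itga3, Itgb6 and Lamb3 had 2 windows each, none with a peak. A WT peak overlapped 7 of the 25 windows, against 40.3% of all protein-coding windows, and a KO peak 4 of 25, against 36.9%. The 7 belonged to Itga1, Itga5, Itgav, Itgb1, Itgb8, Lamb2 and Hspg2. At Itga1 and Lamb2 the peak was WT specific. At Itgb8 the shared WT peak entered the window by only 2 bp, and its KO partner, of 148 bp, stopped short of it. The WT peak covered 201 bp of the 300 bp window at Itga1 and 131 bp at Lamb2. At Itga5, Itgav and Itgb1 the peaks of both lists covered the whole window. At Hspg2 they overlapped it by 160 bp and ended before the start site, so the last printed bases lie outside the peak. The 250 bases before the start are printed 5′ to 3′ on the strand of the gene. Itga1 and Lamb2 come before the 4 windows overlapped in both lists, which are in order of WT −log10 q. Capitals mark the searched words for ETS, E-box and TEAD sites, whose letters are given with their counts.
Itga1: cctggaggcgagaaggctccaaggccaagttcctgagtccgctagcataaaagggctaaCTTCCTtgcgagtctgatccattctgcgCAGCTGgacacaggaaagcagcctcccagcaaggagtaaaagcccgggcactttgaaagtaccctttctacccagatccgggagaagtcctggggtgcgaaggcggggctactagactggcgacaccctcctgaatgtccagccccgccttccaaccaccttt
Lamb2: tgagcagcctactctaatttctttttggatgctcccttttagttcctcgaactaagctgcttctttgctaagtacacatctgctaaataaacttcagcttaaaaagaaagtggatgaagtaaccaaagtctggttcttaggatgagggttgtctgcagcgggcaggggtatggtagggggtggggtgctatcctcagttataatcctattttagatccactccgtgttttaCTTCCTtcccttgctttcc
Itgb1: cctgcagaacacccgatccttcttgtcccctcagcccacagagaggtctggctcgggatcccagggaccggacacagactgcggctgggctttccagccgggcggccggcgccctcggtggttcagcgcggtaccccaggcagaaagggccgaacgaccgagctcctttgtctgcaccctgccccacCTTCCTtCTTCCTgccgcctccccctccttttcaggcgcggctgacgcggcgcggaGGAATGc
Itgav: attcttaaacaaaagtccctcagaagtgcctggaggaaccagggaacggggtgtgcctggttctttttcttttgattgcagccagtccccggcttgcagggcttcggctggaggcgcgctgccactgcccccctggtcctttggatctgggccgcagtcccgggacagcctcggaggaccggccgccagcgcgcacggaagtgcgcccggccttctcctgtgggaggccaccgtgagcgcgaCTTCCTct
Hspg2: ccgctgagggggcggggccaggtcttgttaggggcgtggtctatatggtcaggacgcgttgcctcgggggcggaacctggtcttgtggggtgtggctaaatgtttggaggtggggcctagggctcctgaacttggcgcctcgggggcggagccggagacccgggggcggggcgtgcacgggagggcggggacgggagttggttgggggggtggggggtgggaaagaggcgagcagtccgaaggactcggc
Itga5: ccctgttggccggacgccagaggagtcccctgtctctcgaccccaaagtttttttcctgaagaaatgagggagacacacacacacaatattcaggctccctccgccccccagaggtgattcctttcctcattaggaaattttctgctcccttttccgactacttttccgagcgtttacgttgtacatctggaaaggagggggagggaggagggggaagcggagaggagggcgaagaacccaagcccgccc

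The printed stretches are chr13:115101965-115102214 (minus strand) for Itga1, chr9:108479612-108479861 (plus) for Lamb2 and chr8:128685404-128685653 (plus) for Itgb1. Those of Itgav, Hspg2 and Itga5 are chr2:83724147-83724396 (plus), chr4:137468553-137468802 (plus) and chr15:103366792-103367041 (minus). The 4 promoters overlapped by peaks of both lists had a GC content of 55.6% (Itga5), 64.4% (Itgav), 68.0% (Itgb1) and 70.0% (Hspg2). The promoter of Lamb2 had the lowest GC content of the 6, 43.6%, and that of Itga1 had 57.6%. Over all 7 windows with a peak the median ratio of observed to expected CpG was 0.570, against 0.442 for the 18 without. Among all protein-coding windows these medians were 0.778 and 0.283.

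Short words of known binding motifs were counted on both strands of the 250 bases before each start. The RUNX word, TGTGGT or TGCGGT, was present in 3 of the 25 windows, those of Itga3, Itga4 and Itga8, against 17.5% of all promoters. None of the 7 windows with a peak held it, against 17.6% of all promoters with a peak. The ETS word, CCGGAA or AGGAAG, was present in 11 of 25 windows (39.8% of all promoters) and in 4 of the 7 with a peak (46.5%), namely Itga1, Itgav, Itgb1 and Lamb2. The ETS and TEAD words can share the letters GGAA. The MyoD-type E-box CAGCTG was present in 5 windows (12.2%), the TEAD word GGAATG in 4 (11.6%) and the AP-1 word TGANTCA in 0 (6.17%). Counted back from the start site, the E-box of Itga1 begins at −163 and the TEAD word of Itgb1 at −7. These matches describe letters in a window of fixed length and say nothing about binding.

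Among the alpha chains that bind collagen (Itga1, Itga2, Itga10 and Itga11), 6 of 12 WT peaks (50%, against 27.3% of the full list) were WT specific and 1 of 7 KO peaks (14.3%, against 9.59%) was KO specific. These are small counts of 4 genes, and 3 of the 6 lay at Itga1. In the other role groups with at least 10 WT peaks the WT specific share was 9.09% (laminin gamma), 17.1% (beta), 20% (laminin beta), 23.1% (RGD-binding alpha) and 27.3% (laminin alpha). Itga1, a collagen receptor chain, spans 144 kb at chr13:114958079-115101964. Its shared WT peak, at chr13:114964254-114964507, had a −log10 q of 15.9 at a fold of 10.8. For its KO partner, at chr13:114964248-114964493, these were 23.2 and 12.8. The other 3 WT peaks were WT specific, and no KO peak lay within 125630 bp of any of them.

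The WT specific peak over the Itga1 promoter, at chr13:115101541-115102115, was 575 bp wide with a fold of 8.26 and a −log10 q of 11.7. It covered the start site shown among the promoter sequences. A second, at chr13:115090123-115090839, was 717 bp wide with a fold of 7.91 and a −log10 q of 10.4. It lay inside Itga1 and 323 bp from an end of Pelo, a translation surveillance gene, and counts for both genes. The third, at chr13:115107567-115107762, lay 5700 bp before Itga1 with a −log10 q of 7.05. In width the promoter and Pelo peaks stood at percentiles 80.5 and 90.9 of the WT list, but in −log10 q at 34.9 and 29.8. In the stretch between the retained KO peaks on either side, 8 KO call numbers were missing, so KO calls in that stretch are absent from the list used here.

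Itga2, which encodes another collagen receptor chain and lies at chr13:114833081-114932100, had 1 WT peak and no KO peak. The WT specific peak, at chr13:114876162-114876554, had a fold of 6.29 and a −log10 q of 6.47, and 3 KO call numbers were missing around it. Itga10 had 1 shared peak, 882 bp from the far end of the gene, with a −log10 q of 30.3 (WT) and 25.5 (KO). That peak also counts for Ankrd35.

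Itga11, the collagen receptor chain of mesenchymal cells, spans chr9:62677855-62783979 and had 6 WT and 5 KO peaks. Its 4 shared WT peaks had −log10 q values from 10.3 to 37.2. Its WT specific peak at chr9:62673918-62674199 lay 3797 bp before the gene with a −log10 q of 12.1. The other, at chr9:62724423-62724664 (10.1), lay 162 bp from a KO peak, that is, beside a shared site rather than far from one. The KO specific peak at chr9:62732590-62733109 had a fold of 5.41 and a −log10 q of 5.84, and no WT call number was missing around it.

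Of the laminin receptor chains, Itga6 had no peak and Itga3 had 1 shared peak, at chr11:95041303-95041609, with a −log10 q of 59.4 (WT) and 40.5 (KO). That peak lay 3019 bp outside Itga3 and 85 bp from an end of Pdk2, so it is at the edge of the neighbouring gene. Of the receptor chains for fibronectin and other RGD ligands, Itga8 had no peak, Itga5 had 5 WT and 3 KO peaks and Itgav 8 and 6. None of the KO peaks at these genes was KO specific.

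Itga5, the classical fibronectin receptor chain, carried a shared peak over its start site at chr15:103366478-103367141 (−log10 q 16.2), with a KO partner at 14.4. Its strongest WT peak, at chr15:103358495-103358938, had a −log10 q of 45.3. That peak and the next one, at chr15:103359068-103359429 (18.5), matched a single KO peak of 880 bp with a −log10 q of 57.3. At chr15:103342541-103342681 a WT specific peak was 141 bp wide with a −log10 q of 5.25. It lay 1675 bp outside Itga5 and also counts for Zfp385a.

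Itgav encodes the alpha chain of the vitronectin receptors. Its start site was covered by a shared peak at chr2:83723987-83724651, with a fold of 9.13 and a −log10 q of 18.9 (WT), and 6.61 and 11.5 (KO). Its other 5 shared WT peaks had −log10 q values from 10.6 to 15.4. The 2 WT specific peaks, at chr2:83714786-83714982 and chr2:83724961-83725214, lay 327 bp and 299 bp from a KO peak. Both were therefore next to sites present in both lists.

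**Figure D4:**
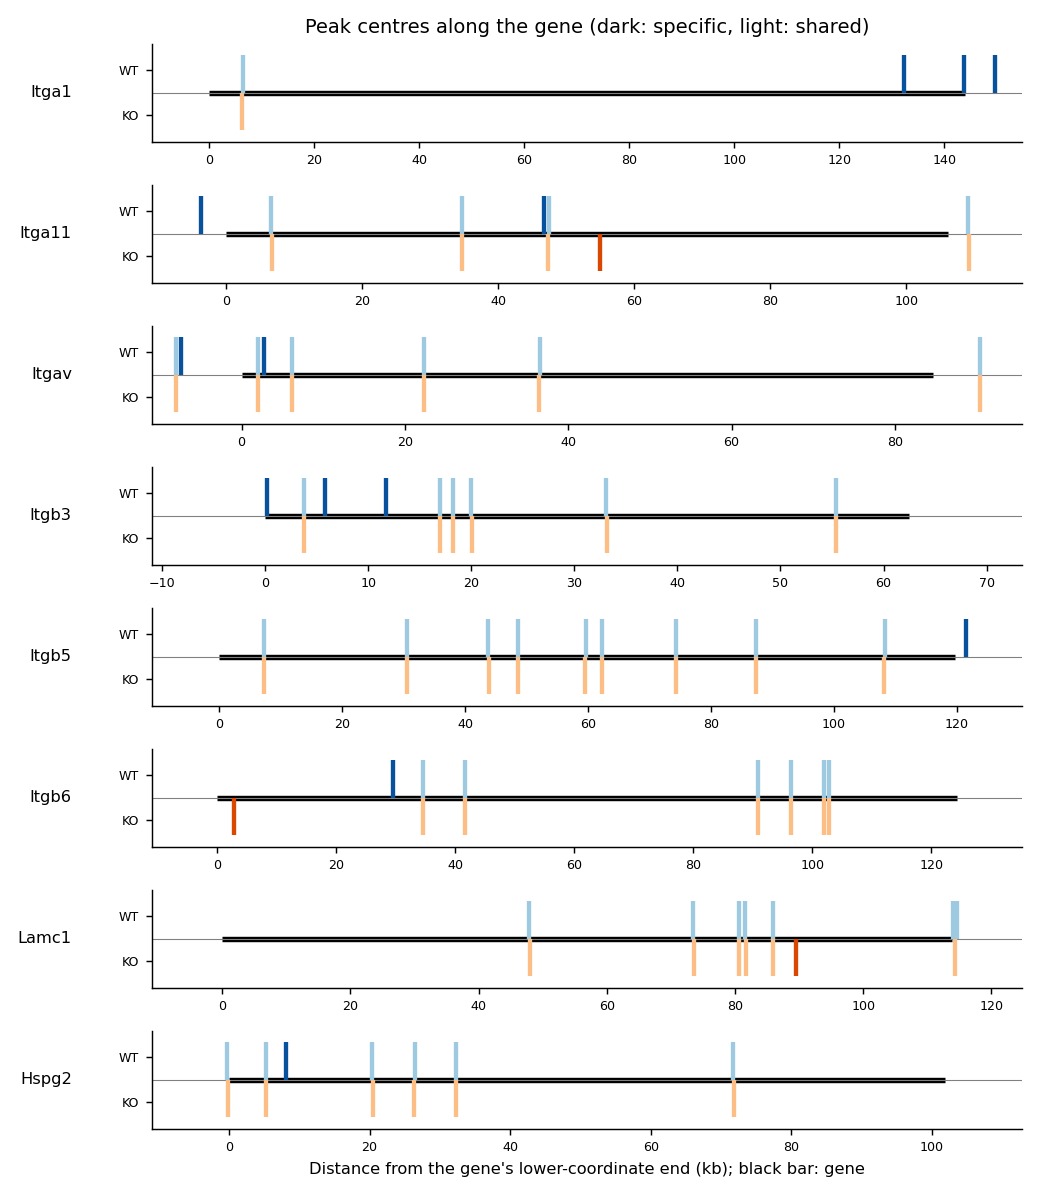
Peak centres along the 8 genes with at least 6 WT peaks or at least 3 specific peaks, WT above and KO below each gene, plotted as distance in kb from the end of the gene with the lower coordinate, with dark lines for specific and light lines for shared peaks. At Itgb5 all 9 KO peaks line up with a WT peak, while the 3 WT specific peaks of Itga1 stand at the right end with no KO peak near them.

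The 8 beta chains held 35 WT peaks, of which 6 (17.1%) were WT specific, against 27.3% of the full list. Of their 33 KO peaks, 4 (12.1%) were KO specific, against 9.59%. Itgb1, the common partner of most alpha chains, had 1 shared peak over its start site at chr8:128685127-128686370. That peak was 1244 bp wide with a fold of 11.6 and a −log10 q of 25, and its KO partner was 1243 bp wide with a fold of 12.3 and a −log10 q of 34.2. The KO specific peak at chr8:128679935-128680270, 5552 bp before the gene, had a fold of 11 and a −log10 q of 19.3, the highest of the 8 KO specific peaks. It lay at percentile 55.0 of the KO list, 4857 bp from the nearest WT peak, with 1 WT call number missing around it.

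Itgb3, the beta chain of the platelet fibrinogen receptor and of a vitronectin receptor, spans chr11:104608000-104670476 and had 9 WT and 6 KO peaks. The 6 shared peaks lay inside the gene, with WT −log10 q values from 8.28 to 39.8 and KO values from 9.14 to 39.0. The 3 WT specific peaks lay in the part of the gene nearest its lower-coordinate end. They were at chr11:104608112-104608255 (−log10 q 3.35), chr11:104613641-104613886 (6.94) and chr11:104619526-104619935 (9.41). All 3 were weak within the WT list, at percentiles 2.25, 14.7 and 25.6, and 1 KO call number was missing around each.

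Itgb5, the beta chain of another vitronectin receptor, spans chr16:33829665-33949338 and had the most peaks. Its 9 shared peaks were spread over the gene from 7347 to 108247 bp after the start, with WT −log10 q values from 8.80 to 36.3 and KO values from 6.46 to 36.8. No peak covered its start site. A WT specific peak, at chr16:33950981-33951241, lay 1773 bp past the gene with a −log10 q of 12.9, and also counts for Umps.

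Itgb6, best known from epithelia as a chain that activates latent TGF-beta, had 7 peaks in each list, 6 of them shared. The strongest, at chr2:60689020-60689397, had a fold of 19.7 and a −log10 q of 61.4 in the WT list, and 16.4 and 49.4 in the KO list. Its WT specific peak, at chr2:60627528-60627983, had a −log10 q of 7.05 and its KO specific peak, at chr2:60600869-60601249, 5.16. Neither of its 2 promoter windows was covered by a peak.

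Itgb2, the beta chain of leukocyte integrins, had 4 WT and 3 KO peaks. Its WT specific peak, at chr10:77545018-77545299 (fold 7.19, −log10 q 10.4), was the only WT specific peak of the 24 with no KO call number missing around it. Itgb7, another leukocyte chain, had 1 shared peak of 777 bp with a −log10 q of 62.0 (WT) and 37.7 (KO). That peak also counts for Rarg. Itgb8 had 1 shared peak, upstream of its start site, with a −log10 q of 13 (WT) and 5.16 (KO).

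Itgb4, the hemidesmosome chain, was the only gene of the set with more than 1 KO specific peak. It had 2 WT and 4 KO peaks. Both shared sites lay outside Itgb4, 424 bp or less from an end of Sap30bp, Galk1 or H3f3b in the WT list. The KO specific peaks, at chr11:115971114-115971291 (−log10 q 6.14) and chr11:116004958-116005404 (3.14), stood at percentiles 7.37 and 0.828 of the KO list. The former lay outside Itgb4 and also counts for Sap30bp, and the latter lay inside Itgb4 and also counts for Galk1. No WT call number was missing around either KO specific peak.

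The 10 laminin chains held 32 WT peaks, of which 6 (18.8%) were WT specific, against 27.3% of the full list. Of their 29 KO peaks, 3 (10.3%) were KO specific, against 9.59%. Lama2, the alpha chain of the muscle basement membrane, is the longest gene of the set at 636 kb (chr10:26981285-27617191) and had 5 peaks in each list. The highest −log10 q of all WT peaks at the 33 genes, 89.6, belonged to its peak at chr10:27063732-27064084, at percentile 99.0 of the WT list with a fold of 26.6. The KO partner had a fold of 16.3 and a −log10 q of 47.7. It lay inside the gene, 553034 bp after the start. The promoter window of Lama2 was not covered in either list.

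The WT specific peak of Lama2, at chr10:26996043-26996252, had a −log10 q of 6.24, and its KO specific peak, at chr10:27174389-27174529, 5.16. Lama1, the alpha chain of early embryonic basement membranes, had only a WT specific peak, at chr17:67689737-67690256 (fold 8.11, −log10 q 11.9), 7131 bp outside the gene and 56527 bp from the nearest KO peak. There, 6 KO call numbers were missing. Lama5 had 4 peaks in each list. Its WT specific peak, at chr2:180213515-180213832, had a −log10 q of 9.18.

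Lamb2 encodes the laminin beta chain concentrated at the neuromuscular synapse and is the shortest gene of the set, 10.7 kb at chr9:108479847-108490530. Its WT specific peak at chr9:108479781-108479975 covered the start site with a fold of 5.84 and a −log10 q of 7.18. A shared peak lay just upstream at chr9:108478898-108479204, and its KO interval, chr9:108478818-108479378, ended 403 bp before the WT specific peak. Lamb1 had 2 shared peaks and no specific one. Lamb3 had 5 WT and 4 KO peaks. The strongest KO peak of the whole set, with a −log10 q of 64.7, was its peak at chr1:193297911-193298522, whose WT partner had 80.9.

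Lamc1, the gamma chain of most laminins, spans chr1:153218922-153332786 and had 7 peaks in each list. All 7 WT peaks were shared, with −log10 q values from 2.53 to 50.1. The 2 at the upper end of the gene, at chr1:153332565-153333204 and chr1:153333429-153333689, matched a single KO peak of 1341 bp. Its KO specific peak, at chr1:153308028-153308757, was 730 bp wide with a fold of 7.95 and a −log10 q of 14.3.

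Lamc3 had 4 WT and 3 KO peaks. The WT specific peak past it, at chr2:31954680-31955158, had a fold of 9.97 and a −log10 q of 24.4, the highest of the 24 WT specific peaks. It lay 5836 bp from Lamc3 and 4616 bp from an end of Aif1l, its neighbour.

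Lama3, an epithelial laminin alpha chain, had 1 WT and 2 KO peaks, with −log10 q values of 10.5 (WT) and of 4.97 and 7.44 (KO). The higher KO value belonged to its KO specific peak, inside the gene and 128189 bp from the nearest WT peak. The shared WT peak lay 2320 bp outside Lama3 and 2230 bp from an end of Ttc39c. It also counts for Ttc39c, as does its KO partner.

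Nidogens cross-link laminin to type IV collagen. Nid1 had 1 WT peak and no KO peak. That peak, at chr13:13438145-13438816, was 672 bp wide with a fold of 8.10 and a −log10 q of 11.1. It lay 878 bp after the start site and 43869 bp from the nearest KO peak, and 6 KO call numbers were missing around it. Nid2 had a shared peak of 995 bp at its lower-coordinate end, with a −log10 q of 27.5 (WT) and 23.6 (KO), and a WT specific peak of 129 bp at chr14:19786367-19786495 with 4.81.

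Hspg2, the heparan sulfate proteoglycan perlecan, spans chr4:137468751-137570630 and had 7 WT and 6 KO peaks. The peak just before its start site, at chr4:137468340-137468712, had a fold of 8.45 and a −log10 q of 18.2 in the WT list, and 6.39 and 11.9 in the KO list. The strongest was at chr4:137500819-137501374, 32293 bp after the start, with a −log10 q of 81.6 (WT) and 51.8 (KO). At chr4:137476473-137477260 the WT specific peak was 788 bp wide, the widest of the 24, with a −log10 q of 11.1. Fn1, the ligand of Itga5 and Itgav receptors, had a single shared peak at chr1:71652730-71653732. It was 1003 bp wide in the WT list (fold 14.4, −log10 q 42.1) and 1008 bp in the KO list (10.2, 24.6).

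The position of the peaks was compared with that at all protein-coding genes. Of the WT peaks at the 33 genes, 16.3% (17 of 104) lay within 1 kb of an end of the gene, against 29.9% of all pairs of a gene and a WT peak. Elsewhere in the gene lay 65.4% (68 of 104), against 41.8%. In the KO list the shares were 13.8% against 32.6%, and 69.0% against 39.4%. Among genes of at least 50 kb, a length chosen after the values were seen, the WT shares were 13% and 16.8% near an end and 74.0% and 71.0% elsewhere in the gene. The WT difference from other genes was thus small at that length. In the KO list the gap remained at that length, with 9.68% (6 of 62) and 18.5% near an end and 83.9% (52 of 62) and 69.5% elsewhere in the gene. It was not tested. Of the 24 WT specific peaks 4 lay near an end, at Itga1, Itgb3, Lamb2 and Nid1, against 17% of WT specific peaks at all protein-coding genes. Of the 8 KO specific peaks 0 did, against 13.4%, which at 8 peaks is not a detectable difference.

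**Figure D5:**
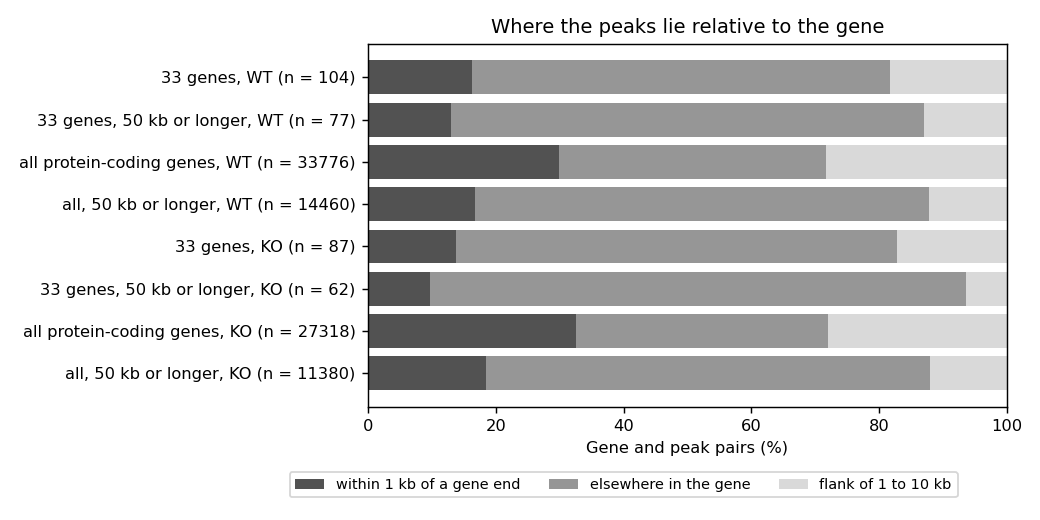
Position of peaks relative to their gene as percent of gene and peak pairs, for the 33 genes and all protein-coding genes and for those of at least 50 kb, in the WT and KO lists. Peaks elsewhere in the gene made up 65.4% at the 33 genes against 41.8% at all genes in the WT list, and 74.0% against 71.0% at genes of at least 50 kb, where the KO list had 83.9% against 69.5%.

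Peaks were dense at some genes and sparse at others. Over the genes and their flanks, the 33 genes held 2.52 WT peaks per 100 kb, against 2.28 for all protein-coding genes. Among genes of at least 50 kb these were 2.13 and 1.61 in the WT list, and 1.71 and 1.27 in the KO list. The differences were not tested. The density was 11.8 WT peaks per 100 kb at Itga5, 10.9 at Itgb3 and 9.78 at Lamb2, and 0.762 at Lama2 and 0.371 at Lama3. Shared peaks had a median width of 376.5 bp in the WT list and their KO partners 453.5 bp. A KO peak that matched more than 1 WT peak counts for each, and the 79 shared KO peaks themselves had a median of 443 bp. In the full lists the medians of shared peaks were 424 bp (WT) and 441 bp (KO), and the differences were not tested. Of the 80 shared WT peaks, 44 had a wider and 36 a narrower KO partner. WT specific peaks had a median width of 271.5 bp.

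The distance of a specific peak to the other list varied widely. Of the 24 WT specific peaks, 4 lay within 500 bp of a KO peak, at Itga11, Itgav (2 peaks) and Lamb2, and the median distance was 7.89 kb. The 8 KO specific peaks lay from 2864 to 128189 bp from a WT peak. These distances were not set against those in the full lists, so they are not shown to be particular to the set. At least 1 call number of the other list was missing around 23 of 24 WT specific peaks, against 87.1% in the full list, and around 5 of 8 KO specific peaks, against 87.4%. The KO specific peaks with none missing were those of Itga11 and Itgb4. A missing number places an absent call in the stretch, not at the peak itself, and specific peaks in the same stretch share it.

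The cytoplasmic side of integrin adhesion was described with 18 further genes. Of their 104 WT peaks 22 (21.2%) were specific, and of their 92 KO peaks 9 (9.78%), shares near those of the full lists. Tns3, a tensin that binds integrin tails, had 18 WT peaks (5 WT specific) and 16 KO peaks (3 KO specific). Pxn, the adaptor paxillin, had 4 WT specific peaks of 10 and 1 KO specific peak of 7. Tln2, a talin, had 4 WT specific peaks of 10 and 3 KO specific peaks of 10. Ptk2 (focal adhesion kinase) and Bcar1 each had 7 peaks in both lists, and Ilk and Tln1 each had 4, all of them shared.

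A second list held 18 other basement membrane and receptor genes. Of their 71 WT peaks, 25 (35.2%) were WT specific, and of their 54 KO peaks, 9 (16.7%) were KO specific. Both shares lay above those of the full lists, 27.3% and 9.59%, and the differences were not tested. Col15a1, a collagen of the outer basement membrane, had 5 WT specific peaks of 8 and Col18a1 had 4 of 8. Fbln1, a matrix protein that binds fibronectin and laminin, had 3 of 4, and Ntn4, a laminin-related netrin, 3 of 5. Col4a1 and Col4a2, which share a locus so that a peak can count for both, had 2 of 9 and 3 of 14. In the KO list, Col18a1 had 2 KO specific peaks of 6, Col4a1 had 1 of 8 and Col4a2 had 3 of 14. KO specific peaks were 0 of 3 at Col15a1, 0 of 1 at Fbln1 and 0 of 2 at Ntn4. Sparc had 7 shared peaks in each list and no specific one. At 8 other integrin and laminin genes, Itga7 among them, 4 of 15 WT peaks were WT specific and 0 of 11 KO peaks were KO specific.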

How the data were processed

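ATAC-seq peak lists of growth-medium C2C12 cells were used, 5 in all: WT, KO, shared, WT specific and KO specific. The genome build is mm10, per the submitters' processing notes. Aligner, peak caller, filters and duplicate handling are not given in the sources used here. The files have the narrowPeak layout without a header. The deposited score, fold ratio, −log10 p and −log10 q of each peak are the authors' values. Fold and −log10 q were used to describe and rank peaks within a list, and score and −log10 p were not used. Replicates 2 and 3 have no values of their own in these lists. Of the numbered calls, 61.6% (WT) and 55.6% (KO) are in the lists used here, and why the others are absent is not stated.

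Overlap of at least 1 bp and gene assignment were computed in Python 3.11.15 with numpy 2.4.6, pandas 2.3.3 and scipy 1.17.1, and 8 of 8 checks passed on bedtools 2.31.1 output and simulated data. The classes matched the deposited lists exactly. Genes and promoters came from RefSeq GRCm38.p6. Overlapping promoter windows on opposite strands were reverse complements in 1670 of 1670 pairs. Exact 95% intervals (Clopper-Pearson) treat peaks as units. With 1 library of values per genotype no test was made, and the set was read against all protein-coding genes of the same number of peaks in place of drawn comparison genes. Genes with a specific peak were named with their counts, those with at least 3 specific or 10 peaks in full, and promoters printed for at most 6. The members, lists and motif words were chosen with earlier results of these data known.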

Additional observations from a re-analysis of the deposited data

How the results depend on the processing

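Each of 6 values was computed under 10 alternatives, 9 of them planned and 1 (peaks at no other protein-coding gene) chosen after seeing the data. Of the 60 values, 52 stayed within the interval of the reported value or, for counts, within 1.5 times, 7 moved and 1 changed sign. The interval is wide: the KO specific share of 9.20% went to 16.1% when 50% of the peak had to be overlapped and to 5.16% with a 50 kb window, both inside it. With an overlap of at least 50% of both peaks, the WT specific share was 33.7%, the KO specific share 20.7%, and 12 genes had a KO specific peak in place of 7. A stricter overlap removes partners by construction. In another alternative, peaks under each list's median −log10 q were left out of the counts but still served as partners for the other list. The WT specific share was then 1.96% and the KO specific share 2.38%. The WT minus KO difference became −0.420 percentage points in place of 13.9, and 1 gene had a WT specific and 1 a KO specific peak. That alternative removes most specific peaks, which are weak. Under the other alternatives the difference ran from 10.8 to 18.8 points. The number of genes with a peak ran from 21 to 32 over all 10.

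No paired analysis was possible because each list holds the values of 1 library per genotype, and for the same reason no replicate was left out. Depth is unknown, and the lists used here hold 61.6% (WT) and 55.6% (KO) of the numbered calls. The absence of a peak from a list is therefore not shown to be a lack of detection in that library.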

Other observations

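The specific lists hold an unnamed column, filled in some rows with the peak's own start position. At the 33 genes it was filled for 1 of 24 WT specific peaks, the one inside Itgb6 at chr2:60627528-60627983, against 10.7% of the WT specific list. It was filled for 0 of 8 KO specific peaks, against 2.22% of the KO specific list. A count of 0 in 8 allows a share of up to roughly 37.5%, taken as 3 divided by 8 and not as an exact limit. What the column stands for is not stated.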
